A study of Glycine max with 36 samples.

Results

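Transcript levels were followed over the last 4 h of the subjective night, from ZT20 (midnight of the former light-dark cycle) to ZT24 (the next dawn), in unifoliolate leaves of soybean (Glycine max, cultivar Williams 82). ZT is zeitgeber time in h. The comparison uses 6 of the 36 libraries of the series, the 3 labelled ZT24 against the 3 labelled ZT20, and it is the only pair of consecutive time points in the course that runs from night into dawn. Seedlings had grown for 9 days at 28 °C under 16 h light and 8 h dark, were moved to constant conditions on the 10th day and were sampled every 4 h for 44 h from ZT0 of the 11th day. The labels do not say whether the constant conditions were light or dark. Both groups are thus of one cultivar and one labelled age (11 days), the labels name no transgene and no other treatment, and each library is a pool of leaves from 3 seedlings.

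Plants keep time with a circadian clock, a set of transcription factors that repress and activate each other in a loop of about a day. Under constant conditions the clock goes on without the light signal. Its output is known to prepare the leaf for dawn, so that transcripts for work done in the light can increase before the light would come, while transcripts of the evening and night decline. Between ZT20 and ZT24 the plants of this series stayed in constant conditions.

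Of 47011 gene identifiers in the table, 27449 averaged 1 FPKM or more across the 36 libraries and were tested. FPKM relates the fragments of a gene to its length and to all mapped fragments of the library, so values are relative within a library. The identifiers are not paired with gene names in the files, and 0 of them matched the reference table of 59048 genes. Genes are therefore described by their course and level, no pathway is named, the leaf could not be checked against marker genes, and 2 identifiers are printed for each direction. In leaf RNA, fewer cells of a type and less RNA per cell cannot be told apart. At the limit of 1 FPKM the 476 genes from 1 to 1.1 FPKM had a median difference of -0.11 (log2, ZT24 minus ZT20), and the 575 untested genes from 0.9 to 1 FPKM had -0.12.

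The 6 libraries correlated closely, with a shift in composition between the time points. Pearson's r of log2 values across genes was 0.988 to 0.989 within ZT20, 0.981 to 0.989 within ZT24 and 0.966 to 0.979 between them. Relative depth, read from the steps of low values, was 1.05 to 1.14 times the median library at ZT20 and 0.910 to 0.997 at ZT24. Absolute depth is unknown. All 3 ZT20 libraries were thus deeper than all 3 ZT24 libraries, and the part of depth in the results was not tested. The median tested gene was at 5.54, 5.66 and 5.67 FPKM in replicates 1 to 3 of ZT20 and at 4.95, 5.33 and 4.55 FPKM in those of ZT24. The ZT24 libraries were lower without overlap, by -0.16 on the log2 scale (2.73 ± 0.02 against 2.57 ± 0.10, SD, n = 3, exact two-sided permutation p = 0.1, the smallest that 3 against 3 allows). The 20 genes of highest mean held 16.7% ± 0.48 of the summed FPKM at ZT20 and 18.7% ± 1.38 at ZT24 (SD, n = 3, exact two-sided permutation p = 0.2), and here the groups overlapped. Counts are therefore given on 2 scales, the deposited one and one rescaled by median ratios, in which every library is divided by the typical ratio of its values to the gene-wise geometric means.

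As deposited, most of the genes that changed toward dawn fell by a little, and far fewer rose. There were 5606 falls (20.4% of the genes tested) and 1156 rises (4.21%). Relative to the median gene the balance turned, with 2356 rises (8.58%) and 1581 falls (5.76%), so the share of rises among the calls went from 17.1% to 59.8%. The median difference over all genes was -0.16 as deposited and 0.01 after rescaling. The test was limma's moderated test on log2(FPKM + 1), fitted over all 36 libraries, with a Benjamini-Hochberg adjusted p under 0.05. As deposited, the number of falls was 3169 without ZT24 replicate 3, the library with the lowest median, and 3499 without ZT20 replicate 2. Without ZT20 replicates 1 and 2 in turn the falls after rescaling were 1015 and 946. The rises differed less, with 1062 without ZT24 replicate 3 and 796 without ZT20 replicate 2.

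A core of genes was called the same way on both scales. All 1156 rises as deposited were also rises after rescaling, and all 1581 falls after rescaling were also falls as deposited. No gene (0) was called in opposite directions. Rescaling divided the ZT24 libraries by 0.789 to 0.921 and the ZT20 libraries by 0.975 to 1.003. It thus moved the differences upward, so this nesting largely follows from the scaling and is no separate support. The scales differed in 4025 genes that fell only as deposited and 1200 that rose only after rescaling. In the core, 1084 of the 1156 rises and 1533 of the 1581 falls had ZT20 and ZT24 libraries that did not overlap on either scale. The core was called from these same libraries, so the selection favours non-overlap and these counts are no separate support. Over all genes tested, non-overlapping libraries were higher at ZT24 for 7.37% and lower for 38.4% as deposited, and for 18.8% and 14.8% after rescaling.

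Large changes were few, and at the largest sizes they were rises. A rise of at least 2-fold was called for 175 genes (0.638%) and a fall of that size for 189 (0.689%). After rescaling there were 319 such rises (1.16%) and 101 such falls (0.368%), and 175 and 101 passed on both scales. At 4-fold there were 14 rises and 4 falls as deposited, and 23 and 2 after rescaling. At 8-fold 1 gene rose and none (0) fell, and after rescaling 4 rose and 0 fell. Complete switching on or off was nearly absent. No gene (0) was listed at 0 in all 3 ZT20 libraries with at least 1 FPKM in all 3 ZT24 libraries, and 1 gene showed the reverse. Folds come from log2(FPKM + 1) values and are understated for low genes.

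Among the 11 steps of 4 h in the course this was a quiet one. The SD of the differences over all genes was 0.313 as deposited and 0.318 after rescaling, the lowest of the 11 steps on both scales. The 6762 calls as deposited (24.6% of the genes) were the second lowest count, and the 3937 after rescaling (14.3%) the lowest. The step before it, ZT16 to ZT20, had 15682 calls (57.1%) with 2844 rises (10.4%) and 12838 falls (46.8%), and the step after it, ZT24 to ZT28, had 8326 (30.3%) with 4111 rises (15%) and 4215 falls (15.4%). Each of these steps shares 3 libraries with the one described here. All steps have the same error in this fit (median SE 0.12), and the differences between their counts were not tested.

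**Figure D1:**
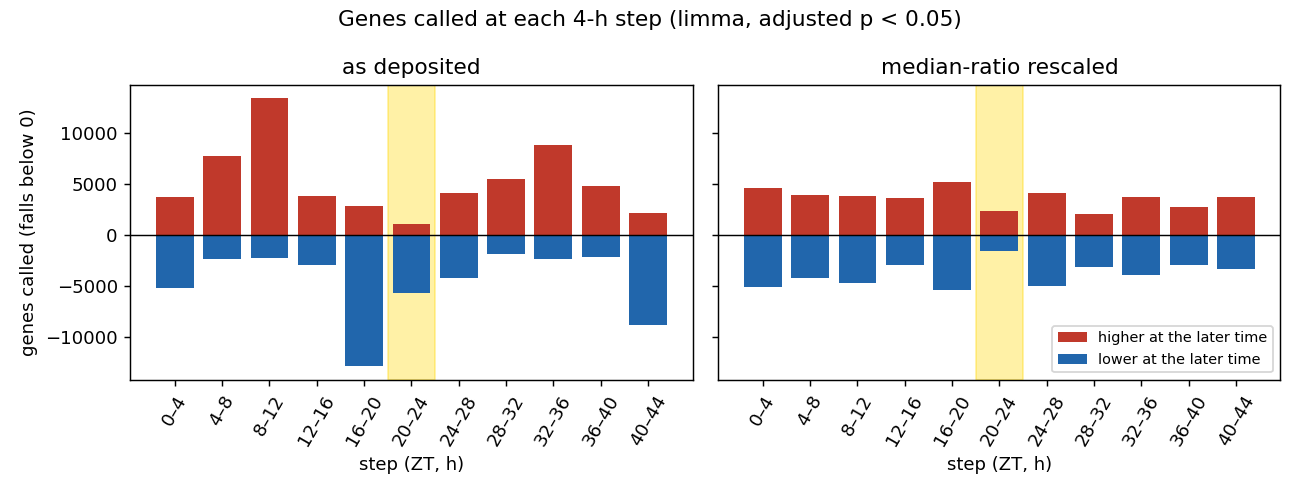
Number of genes called at each of the 11 steps of 4 h, with rises above 0 and falls below 0, as deposited (left) and after median-ratio rescaling (right), from limma with adjusted p under 0.05. The ZT20 to ZT24 step is shaded; its 5606 falls and 1156 rises as deposited became 1581 falls and 2356 rises after rescaling.

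Rises made up a larger share of the abundant transcripts than of the rare ones, a difference that was not tested. Of the 89 genes averaging 1000 FPKM or more, 46 rose (51.7%, against 4.21% of all genes) and 5 fell (5.62%, against 20.4%). Their median difference was 0.38. Among the 706 genes from 100 to 1000 FPKM, 100 rose (14.2%) and 99 fell (14%), with a median of -0.03. The 7138 genes from 1 to 3 FPKM had 208 rises (2.91%) and 998 falls (14%), with a median of -0.14. Falls were most frequent between these levels. The classes of 3 to 10, 10 to 30 and 30 to 100 FPKM had 20.9%, 25.9% and 25.4% falls. Their rises were 3.03%, 4.68% and 7.66%. After rescaling, 54 of the 89 genes rose (60.7%), 152 of the 706 (21.5%) and 400 of the 7138 (5.6%). The share over all genes was 8.58%. Falls in the same order were 2 (2.25%), 28 (3.97%) and 363 (5.09%), against 5.76% of all genes. The classes from 3 to 100 FPKM had 5.9%, 6.44% and 6.01% falls on this scale. These classes use the mean over all 36 libraries. Errors were larger at both ends. The median SE was 0.137 at 1 to 3 FPKM, 0.111 at 30 to 100 FPKM and 0.146 at 1000 FPKM or more.

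As deposited, the gain in FPKM was concentrated in few genes and the loss was spread over many. These sums were not made after rescaling. The median difference over all genes was -0.16 as deposited and 0.01 after rescaling, so the spread of the loss may depend on the scale. The summed gain was 86547 FPKM over 6430 genes, and 100 genes held 72.8% of it. The summed loss was 63391 FPKM over 21010 genes, and 100 genes held 26.4% of it. The 5 largest gains that met the naming rule were between 2249 and 3930.0 FPKM and made up 17.0% of the whole gain, and their means ran from 615 to 6804 FPKM at ZT20 and from 2864 to 9896 FPKM at ZT24. The 5 largest losses that met the naming rule were between -1644 and -231 FPKM and made up 6.58% of the whole loss.

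By the naming rule the largest rise was that of GLYMA15G03620, which was at 1.49, 1.03 and 1.85 FPKM in the ZT20 libraries and at 18.4, 22.2 and 22.7 FPKM in the ZT24 libraries. All ZT24 libraries were far above all ZT20 libraries. The means, 1.46 ± 0.410 and 21.1 ± 2.36 FPKM (SD, n = 3), stood 14.5-fold apart, and the log2 difference was 3.18 ± 0.16 (SE, limma adjusted p = 4.11e-14) and 3.38 after rescaling. Its mean was 110 ± 21.6 FPKM at ZT28. It was 4.00 ± 1.01 FPKM at the first dawn (ZT0), 90.2 ± 8.02 FPKM at ZT8 and 4.64 ± 0.821 FPKM at the second midnight (ZT44). With a pseudocount of 5 FPKM its log2 difference was 2.01, below the 2.47 of GLYMA06G38160, so the order of these 2 rises depends on the pseudocount.

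GLYMA06G38160 came next, at 7.15, 8.33 and 7.15 FPKM at ZT20 and at 63.9, 64.5 and 64.9 FPKM at ZT24. The replicates lay close together within each time point and the groups were widely separated. The log2 difference was 2.94 ± 0.17 (SE, limma adjusted p = 9.36e-13), or 3.15 after rescaling, and the means were 8.54-fold apart. ZT20 was its low point of the first cycle, since it had been at 44.4 ± 10.1 FPKM at ZT16, and it was at 456 ± 41.8 FPKM at ZT28. In the other pair of time points at these clock hours it was at 7.60 ± 1.02 FPKM (ZT44) and 43.9 ± 5.37 FPKM (ZT0).

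The largest fall by this rule, which asks for calls on both scales, 10 FPKM at the higher time point and libraries that do not overlap, was that of GLYMA08G04880, from 34.4, 18.8 and 16.9 FPKM at ZT20 to 2.78, 3.52 and 2.93 FPKM at ZT24. Replicate 1 was the highest at ZT20, and the groups did not overlap. Its mean at ZT24 was 0.132 times that at ZT20, and the log2 difference was -2.51 ± 0.27 (SE, limma adjusted p = 1.33e-07), or -2.36 after rescaling. Its mean was 3.14 ± 1.31 FPKM at ZT12 and 255 ± 107 FPKM at ZT36, the same clock hour of the next day. The second fall, GLYMA09G12252, went from 23.0, 61.5 and 117 FPKM to 17.3, 11.0 and 7.98 FPKM. The ZT20 libraries were widely scattered yet all above those of ZT24, and the difference was -2.16 ± 0.42 (SE, limma adjusted p = 0.000449), or -1.97 after rescaling. The order of these 2 falls was the reverse with a pseudocount of 5 FPKM (-1.87 for GLYMA09G12252 and -1.76 for GLYMA08G04880) and without ZT20 replicate 1 (-2.77 and -2.21).

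**Figure D2:**
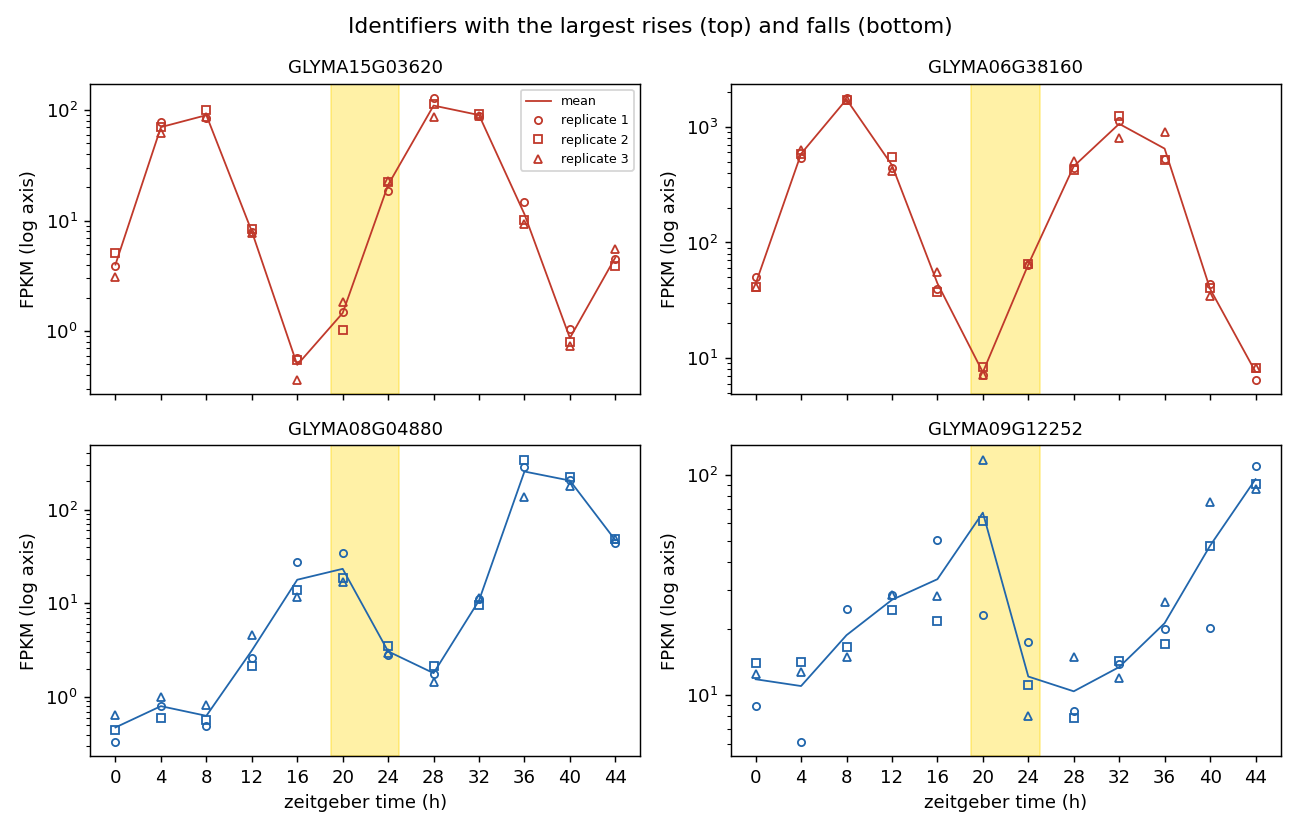
FPKM (log axis) over the 12 time points of the 2 identifiers with the largest rises (top, red) and the 2 with the largest falls (bottom, blue) by the naming rule from ZT20 to ZT24, with each replicate as a marker and the mean as a line; the step is shaded. GLYMA15G03620 rose from a mean of 1.46 to 21.1 FPKM and GLYMA08G04880 fell from 23.4 to 3.08 FPKM over the step.

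The 15 largest rises and the 15 largest falls by the naming rule are given as ranges. The rises ran from 1.95 to 3.18 on the log2 scale and 9 of the 15 were at 100 FPKM or more at ZT24, the highest at a mean of 5217 FPKM. The falls ran from -2.51 to -1.51, and 1 of the 15 was at 100 FPKM or more at ZT20. Their largest adjusted p-values were 0.0331 and 0.000449 (limma).

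What a gene did over the step went with its peak time in the rest of the course. Peak times were taken from a 24-h cosine fitted to the 10 time points other than ZT20 and ZT24, in classes of 4 h. Genes were classed if the fit had an adjusted p under 0.05 (limma) and its peak was 2-fold or more above the trough. Of the 462 genes that peaked around ZT4, 278 rose (60.2%) and 3 fell, with a median difference of 0.48. Of the 816 that peaked around ZT8, 354 rose (43.4%) and 7 fell, with a median of 0.33. These 2 classes held 63 and 70 of the 175 rises of at least 2-fold. Genes that peaked around dawn itself had both rises and falls. Of the 834 genes of the ZT0 class, 78 rose (9.35%, against 4.21% of all genes) and 51 fell (6.12%, against 20.4%). Their median difference was 0.01, against -0.16 over all genes.

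Falls made up the largest shares of the ZT16 and ZT20 classes, although 2853 of the 5606 falls were in genes with no such rhythm. Of 3125 genes that peaked around ZT16, 1705 fell (54.6%, against 20.4% of all genes) and 4 rose, with a median of -0.37. The 1167 genes of the ZT20 class had 528 falls (45.2%), 9 rises and a median of -0.34. The ZT12 class had 459 falls (23%) and 78 rises (3.91%) among 1995 genes, near the 20.4% and 4.21% of all genes. Its median was -0.16, against -0.16 over all genes. Among the 19050 genes with no such rhythm the rises were 355 (1.86%) and the falls were 15% of the genes.

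After rescaling the order of the classes was the same in its outline. In the ZT4 class 645 of 1047 genes rose (61.6%, against 8.58% of all genes) and 1 fell, and in the ZT8 class 492 of 1068 rose (46.1%) and 4 fell. The ZT16 class had 356 falls among 845 genes (42.1%, against 5.76%) and 3 rises. The ZT20 class had 246 falls among 965 (25.5%) and 10 rises. The ZT12 class had 177 falls among 847 (20.9%) and 45 rises (5.31%), with a median of -0.12. Its excess of falls over the share of all genes was thus larger on this scale. The ZT0 class had 229 rises (15.1%) and 42 falls (2.78%) among 1512 genes, with a median of 0.13. Class membership is itself scale dependent, and the differences between classes were not tested.

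**Figure D3:**
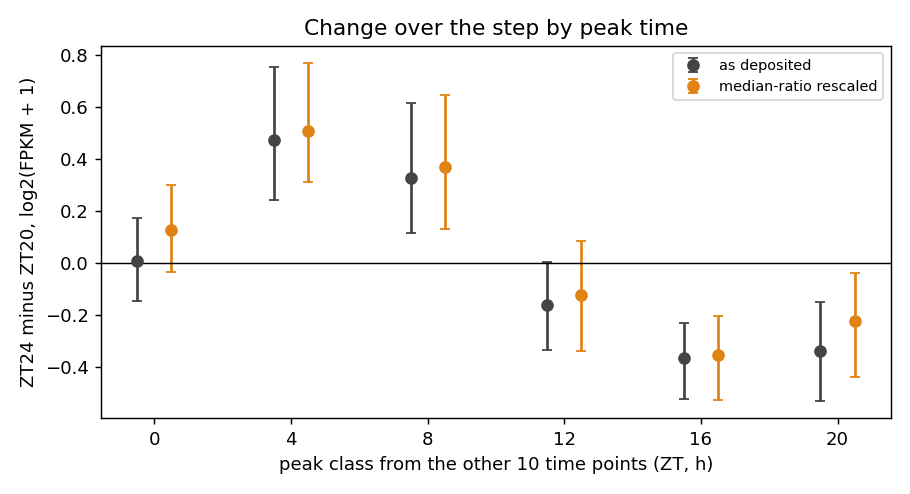
Difference between ZT24 and ZT20 in log2(FPKM + 1), as median (point) and quartiles (bars) over the genes of each peak class, as deposited (grey) and after rescaling (orange). Classes with peaks around ZT4 and ZT8 lie above 0 (0.48 and 0.33 as deposited) and those around ZT16 and ZT20 below 0 (-0.37 and -0.34).

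The courses of the genes with changes of at least 2-fold are described at the time points that did not select them, and their shares of the summed FPKM also at ZT20 and ZT24, where the selection fixed the direction. The 175 rising genes were centred on the gene's mean of the other 10 time points, and their median level was -1.21 at ZT16, 0.72 at ZT4 and 0.77 at ZT8, and 0.93 at ZT28, 1.06 at ZT32 and -0.86 at ZT44. At the first dawn, ZT0, the median was -0.21 with quartiles of -0.96 and 0.46, so these genes were neither uniformly high nor uniformly low there. The same 175 genes held 2.12% ± 0.230 of the summed FPKM at ZT20, 6.17% ± 0.151 at ZT24 and 11.3% ± 0.231 at ZT32 (SD, n = 3), and 6.05% ± 0.317 at ZT0. The 189 falling genes had medians of 1.13 at ZT16, -0.73 at ZT4, -0.99 at ZT28, 0.73 at ZT40 and 0.20 at ZT44. At ZT0 their median was -0.03 with quartiles of -1.15 and 0.68. All genes tested moved the same way as deposited, with medians of 0.19 at ZT16, -0.24 at ZT4, -0.18 at ZT28 and 0.22 at ZT40. After rescaling, the 101 genes that fell 2-fold had medians of 1.06, -0.43, -0.92 and 0.47 at these time points. The 101 that fell 2-fold on both scales held 0.225% ± 0.0172 of the summed FPKM at ZT20 and 0.0713% ± 0.0103 at ZT24.

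**Figure D4:**
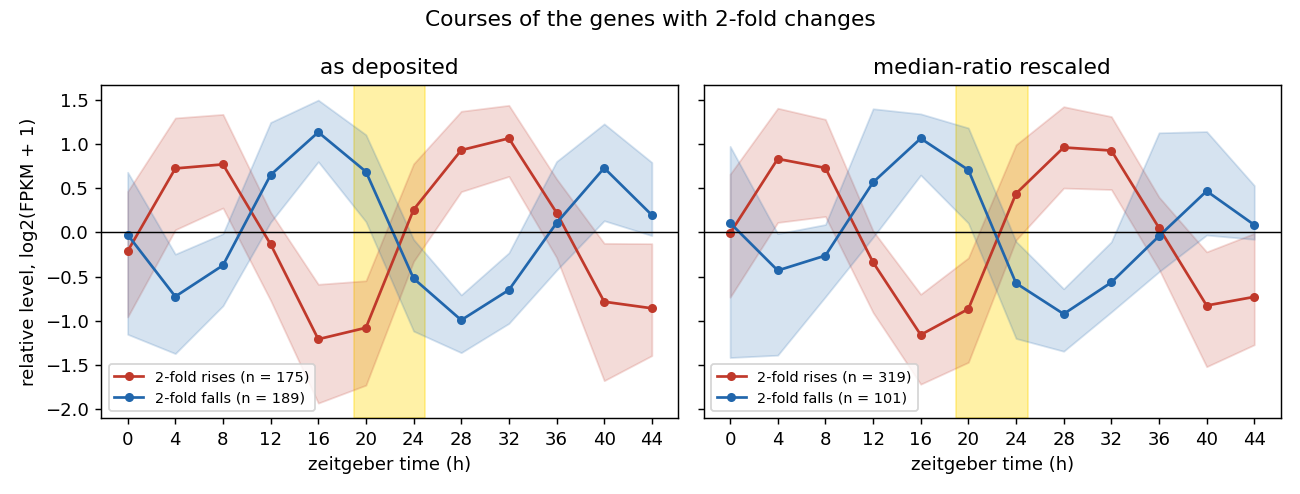
Median (line) and quartiles (band) of the level of the genes that rose (red) or fell (blue) by at least 2-fold from ZT20 to ZT24, in log2(FPKM + 1) centred on the gene's mean of the other 10 time points; the shaded time points chose the genes. Outside the shaded step, the rising genes were lowest at ZT16 (-1.21) and highest at ZT32 (1.06), and the falling genes were highest at ZT16 (1.13) and lowest at ZT28 (-0.99), as deposited.

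The only other libraries at the same clock hours are those of ZT44 and ZT0, which share no library with the step. They are not consecutive, since ZT0 was sampled 44 h before ZT44, so clock hour, plant age and time in constant conditions cannot be told apart in this difference. ZT44 replicates 2 and 3 stood apart from the rest of the series together with ZT40 replicate 2, with scores of 39.3, 33.99 and 38.1 on the fourth principal component of the tested genes against -24.8 to 17.5 in the other 33 libraries. The 20 genes of highest mean held 14.0% of the summed FPKM in ZT44 replicate 1, but 9.64% and 9.62% in replicates 2 and 3. By the naming rule, the gene most raised at ZT0 over ZT44 was at 24210.5 FPKM in ZT44 replicate 1 and at 0 in replicates 2 and 3. ZT0 minus ZT44 had more calls than the step, 16279 (59.3%), or 14157 (51.6%) after rescaling, with 13172 genes lower at ZT0 (48%) and 3107 higher (11.3%), or 6722 (24.5%) and 7435 (27.1%) after rescaling. Its SD over all genes was 0.590 as deposited.

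Part of the step's genes had the same direction between ZT44 and ZT0 and part did not. Of the 1156 rises, 440 (38.1%, against 11.3% of all genes) were higher at ZT0 than at ZT44, and 337 (29.2%, against 48%) were lower. The 440 are 14.2% of the 3107 genes higher at ZT0. Of the 5606 falls, 3335 (59.5%) were lower at ZT0 and 595 (10.6%) higher, against 48% and 11.3% of all genes, and the 3335 are 25.3% of the 13172. After rescaling, 1061 of 2356 rises (45.0%, against 27.1%) were higher at ZT0 and 432 (18.3%, against 24.5%) were lower. Of the 1581 falls, 661 (41.8%, against 24.5%) were lower at ZT0 and 409 (25.9%, against 27.1%) were higher. Leaving out the 3 libraries that stood apart leaves replicate 1 as the only ZT44 library, so no shares are given without them. Across genes the differences of the 2 comparisons had a Pearson's r of 0.137 and a Spearman's rho of 0.083, and genes are not independent replicates.

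The difference between the 2 changes was itself tested. It was called for 10045 genes (36.6%), of which 6892 (25.1%) changed more upward or less downward over the step than between ZT44 and ZT0 and 3153 (11.5%) the other way, and for 9885 genes (36%) after rescaling, with 5108 (18.6%) and 4777 (17.4%). Of the 1156 rises of the step 709 were among the 10045, and 337 of them were lower at ZT0 than at ZT44. The tested difference contains the step, so picking rises of the step favours a called difference. These 2 counts are therefore partly set by the selection. Without the 3 libraries that stood apart, ZT44 is replicate 1 alone, so no count is given for that fit. The difference was tested in limma as the contrast of both differences.

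**Figure D5:**
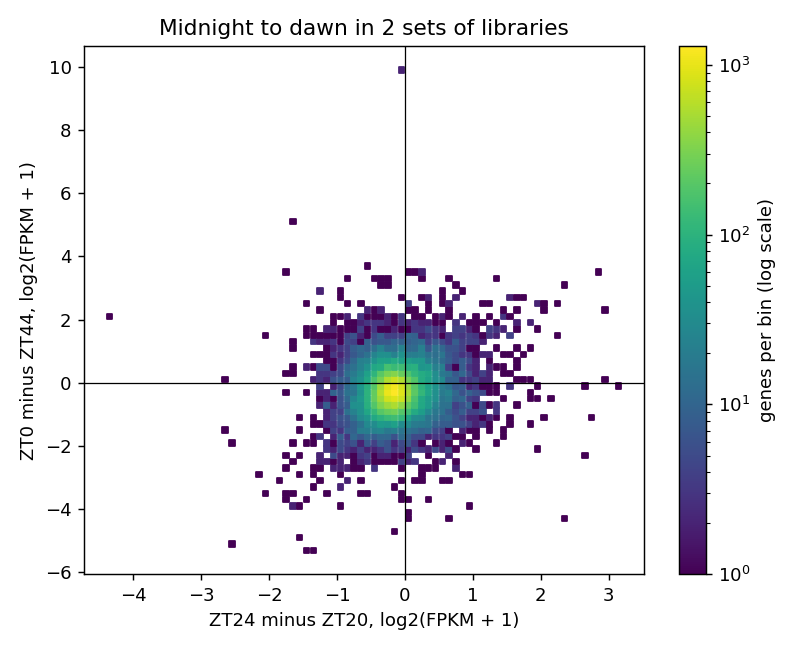
Each square is a bin of genes, placed by the difference ZT24 minus ZT20 (horizontal) and ZT0 minus ZT44 (vertical), both in log2(FPKM + 1), and coloured by the number of genes on a log scale. The vertical spread (SD 0.590) is wider than the horizontal spread (SD 0.313), and the cloud is only loosely tilted (Pearson's r = 0.137).

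As deposited, fewer genes differed between the 2 dawns than over the step (4224 against 6762), and after rescaling more did (5015 against 3937). ZT24 differed from ZT0 in 4224 genes (15.4%), with 2287 higher (8.33%) and 1937 lower (7.06%) at ZT24, or 5015 (18.3%) after rescaling, with 2550 higher (9.29%) and 2465 lower (8.98%). This comparison shares the ZT24 libraries with the step. The identifiers with the largest changes did not all return to their first dawn level. GLYMA15G03620 was higher at ZT24 than at ZT0 by 2.16 ± 0.16 on the log2 scale (SE, limma adjusted p = 2.92e-10), and GLYMA08G04880 by 1.47 ± 0.27 (SE, adjusted p = 0.000337). GLYMA06G38160 was higher by 0.55 ± 0.17 (SE, adjusted p = 0.0255). For GLYMA09G12252 the difference was -0.0035 ± 0.42 (SE, adjusted p = 0.998).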

How the data were processed

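RNA-seq libraries of 12 time points with 3 replicates each were used. The authors deposited 1 table of FPKM values, 1 column per library, whose names matched the sample titles; 0 columns were left unused. Per the submitters' processing notes the tools included TopHat2 2.1.0 and HTSeq 0.6.0, with no roles stated. Genome build, annotation and the program behind the FPKM were not given in the sources used here. FPKM are not counts, so no count model was used.

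Genes averaging 1 FPKM or more were tested on log2(FPKM + 1) with limma 3.58.1 (R 4.3.3), with time as a factor, an intensity trend of the prior variance, and p-values adjusted by Benjamini-Hochberg (threshold 0.05). The fit was tested on simulated data. Replicates are separate pools of plants, per the labels. Identifiers were named if called on both scales with the same sign, at 10 FPKM or more at the higher of both time points and with non-overlapping libraries. For the difference between the changes, the calls were those of that difference. The limit of 10 FPKM then applied to the highest mean of ZT0, ZT20, ZT24 and ZT44. Non-overlap was then asked only between ZT20 and ZT24. The largest 15 rises and falls by log2 difference were kept and the first 2 of each printed. The planned gene lists could not be resolved and were not used. Relative depth came from 12469 low genes, of which 65% lay on whole steps (tolerance 0.06 of a step, in a share of at least 0.9 of their low values). The comparison, classes and lists were chosen with earlier results of these data known. Alternatives were another scaling, pseudocounts of 0.1 and 5 FPKM, other filters, a replicate block, smaller fits and left-out libraries.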

Additional observations from a re-analysis of the deposited data

Results flagged for a closer look

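The change from ZT20 to ZT24 differed from that between ZT44 and ZT0, at the same clock hours, for 10045 genes by limma's contrast of both differences. The number was 8553 to 10790 with 1 library left out. By the naming rule for this difference, GLYMA08G15960 had the largest positive value, 6.66 ± 0.49 on the log2 scale (SE, limma adjusted p = 9.84e-11). It was at 16.0, 18.7 and 31.8 FPKM at ZT20 and at 85.4, 135 and 131 FPKM at ZT24, but at 90.7 ± 16.1 FPKM at ZT44 against 3.68 ± 0.174 FPKM at ZT0 (SD, n = 3). It was thus higher at dawn than at midnight over the step and lower in the other pair of time points.

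GLYMA14G37440 had a difference of 4.93 ± 0.47 (SE, limma adjusted p = 1.03e-08), with 386 ± 86.2 FPKM at ZT20, 586 ± 115 at ZT24, 1087 ± 128 at ZT44 and 58.4 ± 28.5 at ZT0 (SD, n = 3). Its change over the step alone was not called (adjusted p = 0.183). GLYMA14G20450 had a difference of -4.16 ± 0.57 (SE, limma adjusted p = 3.2e-06), with 5.55 ± 1.35 FPKM at ZT20, 2.64 ± 0.676 at ZT24, 0.787 ± 0.328 at ZT44 and 17.5 ± 7.49 at ZT0 (SD, n = 3).

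GLYMA10G44370 had a difference of -4.17 ± 1.34 (SE, limma adjusted p = 0.0155). It was at 44.8 FPKM in ZT44 replicate 1 and at 0.464 and 0.907 FPKM in replicates 2 and 3, which stood apart. With ZT40 replicate 2 and ZT44 replicates 2 and 3 left out, which leaves 1 ZT44 library, the difference was -0.98. Without ZT44 replicate 2 it was -3.28 (limma adjusted p = 0.0632) and without ZT44 replicate 3 it was -3.47 (limma adjusted p = 0.0555).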

How the results depend on the processing

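The count and direction of calls over the step depended first on the scale. Calls were 6762 as deposited, 3937 with median-ratio rescaling, 3941 with quantile normalization and 3917 with rescaling from genes of at least 10 FPKM (added after the data were seen). Rises were 1156, 2356, 1998 and 1995 under these scales and falls 5606, 1581, 1943 and 1922, so that rises were 17.1%, 59.8%, 50.7% and 50.9% of the calls. The majority of rises after rescaling thus held with 1 choice of reference genes and became an even split with the other. The difference of the library median, -0.16, became 0.017 under rescaling, which sets the median by construction. Quantile normalization was not run for it, since all libraries then share 1 median. With 1 library left out, calls ran from 4231 to 6406, rises from 796 to 1062 and falls from 3169 to 5568. After rescaling these ranges were 2520 to 3438, 1574 to 1987 and 946 to 1451. The library median difference ran from -0.21 to -0.11 and the share of the 20 highest genes from 1.49 to 2.75 percentage points. With a filter of 5 FPKM, falls after rescaling were 1021.

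For ZT0 minus ZT44, rises were 3107 as deposited, 7435 with median-ratio rescaling, 6878 with quantile normalization and 1929 with a filter of 5 FPKM, and falls were 13172, 6722, 7196 and 8572. All calls were 10501 with that filter, which tests fewer genes, and 14701 to 15612 with 1 library left out. For the difference between the changes, falls were 3153 as deposited and 4777, 4828 and 1860 under the same alternatives. Pseudocounts of 0.1 and 5 FPKM, no filter and the fit of only the compared libraries moved no count by over 1.5 times. A pseudocount of 5 FPKM moved 2 printed differences by more than that, GLYMA15G03620 from 3.18 to 2.01 and GLYMA14G20450 from -4.16 to -2.37, and it reversed the order of both printed rises and of both printed falls.

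The replicate numbers are shared between time points, but nothing in the labels says that they pair plants, and deviations of same-numbered ZT20 and ZT24 libraries had correlations across genes of -0.11, -0.13 and -0.19. With the replicate block the step had 6839 calls (1163 rises, 5676 falls). In a fit of the 6 libraries alone with the replicate block, added after the data were seen, it had 4159 calls and 3292 falls. Of 140 alternative values for the 8 printed identifiers, 137 kept their call and 3 did not, all of GLYMA10G44370. Absolute depth is unknown, which limits what can be said of low genes.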
